A study of Homo sapiens with 6 samples.

Results

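The nuclear genes that encode respiratory complexes III, IV and V, the factors that assemble complexes III and IV, and cytochrome c were compared between C4-2 cells treated with IPI-9119 and C4-2 cells given the solvent. Members were chosen by symbol: every nuclear protein-coding gene whose symbol began with UQCR, UQCC or ATP5, or with COX or COA followed by a digit, together with CYC1, CYCS, SURF1, SCO1 and SCO2. The rule gave 66 of the 14456 genes in the table, 16 of complex III, 31 of complex IV, 18 of complex V and cytochrome c itself. All 66 had a mean of at least 10 over the 6 libraries, so the filter on low values removed no member.

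C4-2 is a castration-resistant prostate cancer line derived from LNCaP. Cells grew in RPMI medium with 10% fetal bovine serum and received IPI-9119, an inhibitor of fatty acid synthase (FASN), at 100 nM, or DMSO at 0.1%, over 6 days. PolyA RNA was sequenced in 3 libraries of each group, with 19090749 to 23448035 reads per library. Whether replicates of a group were grown separately is not stated, and the p-values therefore reflect only how far the libraries of a group differ, which can be technical variation. The samples come from a single cell line and a single dose and time. In RNA of whole cultures, fewer cells of a kind and less RNA per cell cannot be told apart.

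Complex III passes electrons from ubiquinol to cytochrome c, and complex IV, cytochrome c oxidase, passes them on to oxygen. Both pump protons across the inner mitochondrial membrane, and complex V, the ATP synthase, lets the protons flow back and makes ATP. Most subunits are encoded in the nucleus, a few core subunits are encoded in mitochondrial DNA, and dedicated factors insert heme and copper and join the parts. Fatty acid synthase makes palmitate in the cytosol, drawing on acetyl-CoA that derives from mitochondrial citrate.

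Most of these genes were higher in the IPI-9119 libraries, in each of the complexes. Values are normalised read counts, in which each library's gene counts were divided by its own size factor. Of the 66 members, 56 rose, 1 fell (COX19) and 9 were not called by limma at a Benjamini-Hochberg adjusted p under 0.05 over 14437 genes. Among all genes tested, 31.3% were called higher and 31.4% lower, 62.8% in all. On the recovered reads edgeR also called 56 members higher and 1 lower (31.0% and 31.9% of all genes, 62.8% in all), and DESeq2 56 higher and 0 lower (29.4% and 29.2%, 58.6% in all). The members' median log2 fold change, IPI-9119 over DMSO on the log2(value + 1) scale, was 0.42 (range -0.31 to 0.77), beside 0.0017 over all genes tested. In 59 members every IPI-9119 library lay above every DMSO library, in 1 every IPI-9119 library lay below, and in 6 the groups overlapped. Over all genes, 34.0% had IPI-9119 libraries wholly above the DMSO libraries and 33.9% wholly below. Among the 4140 genes with a mean of at least 1000, 40.2% were called higher and 33.8% lower.

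The members together took 1.19%, 1.12% and 1.16% of the reads of the DMSO libraries and 1.59%, 1.47% and 1.46% of those of the IPI-9119 libraries. This was 1.16% ± 0.0305 on average in DMSO and 1.5% ± 0.0741 in IPI-9119 (SD, n = 3 each). The groups did not overlap, and IPI-9119 replicate 1 stood highest. That library held the highest IPI-9119 value in 57 of the 66 members, while DMSO replicate 2 held the lowest DMSO value in 51. Without IPI-9119 replicate 1, 55 members were called higher and the members' median was 0.37.

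**Figure D1:**
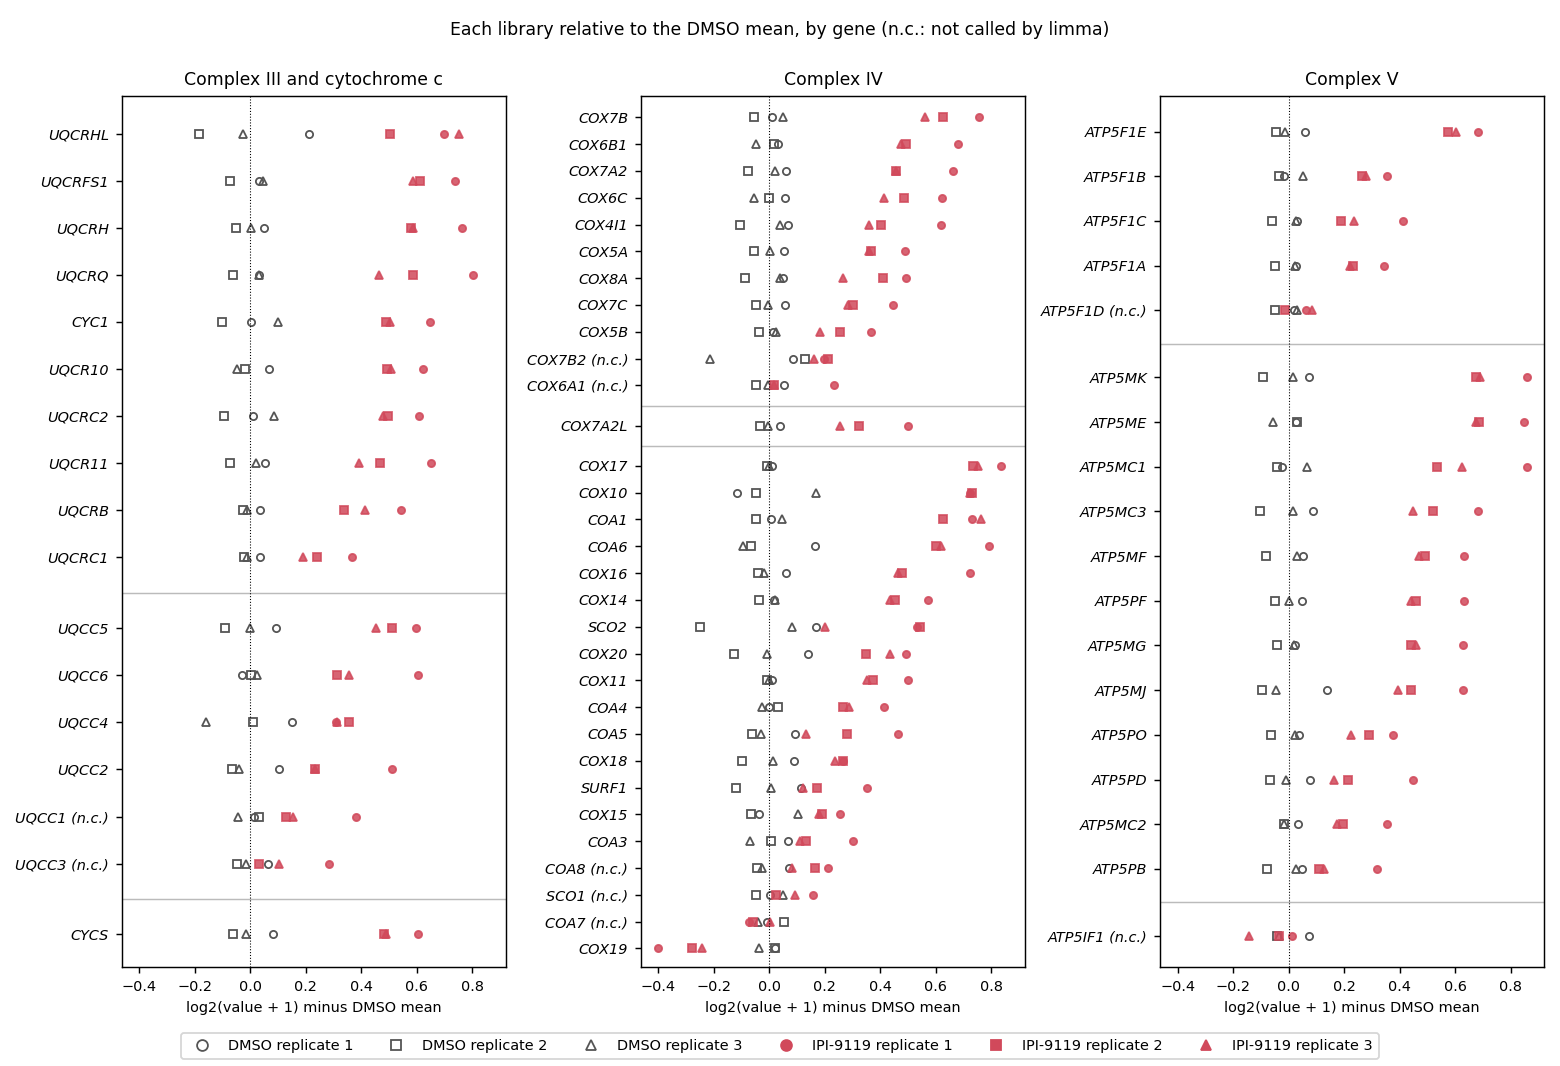
Log2(value + 1) of each member in each library minus the mean of its 3 DMSO libraries, in panels for complex III with cytochrome c, complex IV and complex V, 1 point per library and members ordered within a panel; n.c. marks the members that were not called. The IPI-9119 points lie above the DMSO points for most members, and COX19 is the 1 called member below 0.

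Fold changes over all genes varied with transcript length, and many members are short. Exonic length, counted over the merged exons of all annotated transcripts of a gene, had a median of 2548.5 nucleotides over the members. Genes were divided by length into 5 classes of about equal number. In the shortest (66 to 2344 nucleotides) the median log2 fold change was 0.13, and 33.1% of genes were called higher and 17.1% lower. Of the 31 members in that class, 27 were called higher, with a median of 0.49. In the longest class (7885 to 49287 nucleotides) the median over all genes was -0.17, and 23.8% of genes were called higher and 46.3% lower. There 3 of 4 members were called higher, with a median of 0.35. Within each class of length the members' median was above that of all genes.

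A correction for length and GC content lowered the members' fold changes without removing most of their calls. After it, 45 members were called higher and 3 lower, with a median of 0.27, beside 30.7% and 34.1% of all genes (64.8% in all) and an all-gene median of -0.033. Of the 56 members called higher before, 44 were still called higher. The 3 lower were COA7, COX6A1 and ATP5IF1. The 12 whose call was lost were UQCC4, UQCC6, COX15, COX18, COA3, COA5, SURF1, ATP5F1C, ATP5MC2, ATP5PB, ATP5PD and ATP5PO. With the length of the principal transcript in place of merged exons, 47 members were called higher and 1 lower (ATP5IF1), with a median of 0.24, beside 30.5% and 34.8% of all genes (65.3% in all). Of these 12, COX18, ATP5MC2 and ATP5PO were called there, and the call of COX5B was lost. The corrected value stands beside the uncorrected one for many of the genes below. Whether the dependence on length arose in the cells or in the libraries was not tested.

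**Figure D2:**
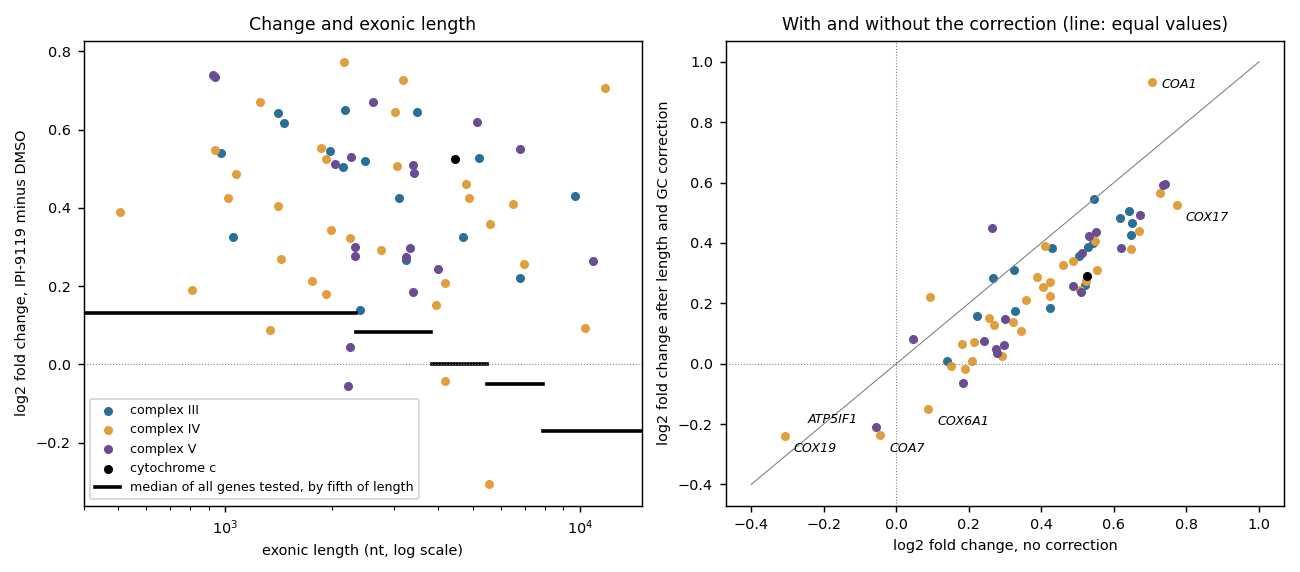
Left, log2 fold change (IPI-9119 over DMSO) of each member against merged exonic length in nucleotides on a log axis, with black bars at the median of all genes in 5 classes of length with equal numbers of genes; right, the same fold change before and after the correction for length and GC content, with the line of equal values. The medians of all genes run from 0.13 in the shortest class to -0.17 in the longest, and in each class the median of the members is above the bar.

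The promoters of a few members are shown because they carry, or lack, sequences that are known as binding motifs of NRF1 and of ETS factors such as GABP, regulators of many nuclear respiratory genes. Windows of 250 bases before to 50 after each annotated start came from RefSeq (GRCh38.p14) and covered 55 of the 66 members. COX17 had the largest rise of all members and has 2 annotated starts in the table, of which the upstream one is shown. UQCR11 and ATP5PD are subunits of complexes III and V that rose by different amounts, and COX19 is the member that fell. Capitals mark matches to the NRF1-type sequence (GCGCA, any base, GCGC) in COX17, at 116 and 62 bases before the start, and to the ETS-type sequence CCGGAAG or its reverse complement in the others. UQCR11 has its ETS-type matches at 117 and 97 bases before the start and ATP5PD at 101. The NRF1-type matches of UQCR11 lie nearer the start, at 29 and 10 bases before it. The stretch printed ends on the first base of the match at 29. The COX19 stretch holds none of these sequences. All 4 genes lie on the minus strand and are printed 5′ to 3′ along the gene.
COX17 (chr3:119677455-119677634): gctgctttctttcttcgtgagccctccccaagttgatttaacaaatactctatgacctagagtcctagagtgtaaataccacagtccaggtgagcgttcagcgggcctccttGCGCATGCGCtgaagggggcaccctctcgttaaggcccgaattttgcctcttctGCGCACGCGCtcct
UQCR11 (chr19:1605491-1605670): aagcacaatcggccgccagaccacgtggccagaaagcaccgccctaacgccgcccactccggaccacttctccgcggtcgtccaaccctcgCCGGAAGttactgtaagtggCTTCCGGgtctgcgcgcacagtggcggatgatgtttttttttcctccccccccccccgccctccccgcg
ATP5PD (chr17:75046986-75047165): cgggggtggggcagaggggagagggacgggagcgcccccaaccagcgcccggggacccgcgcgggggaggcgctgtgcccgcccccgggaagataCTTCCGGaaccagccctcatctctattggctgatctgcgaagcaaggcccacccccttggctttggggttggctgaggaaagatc
COX19 (chr7:975600-975779): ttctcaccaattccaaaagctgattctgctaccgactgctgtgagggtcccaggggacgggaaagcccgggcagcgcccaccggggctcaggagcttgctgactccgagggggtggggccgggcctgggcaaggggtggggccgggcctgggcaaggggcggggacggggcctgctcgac

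Counting both strands and any window of a gene, 13 of 55 members (23.6%) had an NRF1-type match, beside 13.9% of 10676 tested genes and 6.98% of 27305 genes with a promoter in the table. An ETS-type match was present in 23 of 55 members (41.8%), beside 22.9% and 12.2%. For the YY1-type sequence AAGATGGCG the numbers were 4 of 55 (7.27%), 4.73% and 2.14%. A match is a description of these letters in this window and not evidence of a bound factor. The 13 members with an NRF1-type match had a median log2 fold change of 0.49 (range 0.22 to 0.77), and the 42 without had 0.40 (-0.31 to 0.74). For ETS-type matches the medians were 0.46 in 23 members with a match (0.088 to 0.77) and 0.35 in 32 without (-0.31 to 0.67). The ranges with and without a match thus overlapped widely. ATP5ME, COX17 and UQCR11 had both kinds. These differences between members were not tested.

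In complex III, all 10 genes counted as subunits rose, with a median log2 fold change of 0.54 (0.41 corrected, all 10 called). They include UQCRHL, a copy of UQCRH whose reads can be those of UQCRH, so it is no independent case. UQCRFS1, the Rieske iron-sulfur protein, had 3081, 2867 and 3113 in DMSO and 5039, 4611 and 4534 in IPI-9119. Every IPI-9119 library lay above every DMSO library, and the mean went from 3020.3 ± 133 to 4728 ± 272, a log2 fold change of 0.65 (SE 0.054, limma adjusted p = 1.6e-07; corrected 0.43). An UQCRFS1 pseudogene is also in the table and could take some of its reads. UQCRH, the hinge protein beside cytochrome c1, had 7160.3, 6686 and 6941 in DMSO and 11739.9, 10344 and 10394 in IPI-9119. All IPI-9119 libraries were higher, at a log2 fold change of 0.64 (SE 0.054, limma adjusted p = 1.66e-07; corrected 0.51). UQCRHL is a near-identical copy of UQCRH at a much lower level, with 174, 132 and 148 in DMSO and 245, 214 and 254 in IPI-9119. It rose by 0.65 (limma adjusted p = 0.000555), and since reads of UQCRH and UQCRHL can be exchanged in counting, its own change is uncertain. UQCRH had the highest level per kb of exons among the complex III subunits, 4921 normalised reads per kb in DMSO. Per kb of coding sequence UQCRQ was the highest of these subunits.

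The other complex III subunits rose by 0.27 to 0.62 on the log2 scale. UQCRQ, a small subunit next to cytochrome b, had 5413, 5082 and 5417 in DMSO and 9251, 7957 and 7314 in IPI-9119, and rose by 0.62. CYC1, which carries the heme that passes electrons to cytochrome c, had 3629, 3381 and 3886 in DMSO and 5682, 5086 and 5134 in IPI-9119, and rose by 0.55 (corrected 0.54). The core proteins UQCRC2 and UQCRC1 rose by 0.53 and 0.27. UQCRC1 had 4273, 4107 and 4137 in DMSO and 5379, 4930.1 and 4763 in IPI-9119, the smallest rise of the subunits (limma adjusted p = 0.000463), and its groups still did not overlap. The small subunits UQCR10, UQCR11 and UQCRB rose by 0.54, 0.50 and 0.43. UQCR11, shown above with a pair of ETS-type matches, had 3288, 3012 and 3219 in DMSO and 4978, 4385 and 4161 in IPI-9119.

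Of the 6 assembly factors of complex III, 4 rose and 2 were not called, with a median of 0.33. After correction 2 were called higher, UQCC5 and UQCC2. UQCC5 rose most, from 599 ± 38.0 to 859 ± 42.9, a log2 fold change of 0.52 (SE 0.074, limma adjusted p = 2.77e-05; corrected 0.26). UQCC5 shares 14.2% of its exonic length with NT5DC2 on the opposite strand, whose mean was 1315, so its count is uncertain. UQCC6 had 428, 438 and 445 in DMSO and 665, 543 and 559 in IPI-9119 and rose by 0.42. Its IPI-9119 replicate 1 stood well above the other two, and with correction the value was 0.19 and not called (limma adjusted p = 0.055). UQCC4 and UQCC2 each rose by 0.33; UQCC2, which takes part in the synthesis of cytochrome b, had the highest level of these factors, 645 normalised reads per kb of exons in DMSO. UQCC1, a partner of UQCC2, had 189, 192 and 182 in DMSO and 245, 205 and 209 in IPI-9119, with groups apart but no call (log2 fold change 0.22, limma adjusted p = 0.102). UQCC3 had 628, 581 and 595 in DMSO and 732, 615 and 646 in IPI-9119; the groups overlapped (log2 fold change 0.14, limma adjusted p = 0.146).

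Cytochrome c carries electrons between complexes III and IV. CYCS had 11905, 10763 and 11117 in DMSO and 17109, 15700.0 and 15807 in IPI-9119. The groups were far apart, and the mean went from 11262 ± 584 to 16206 ± 784, 1.44-fold, with a log2 fold change of 0.53 (SE 0.051, limma adjusted p = 6.89e-07; corrected 0.29). GENCODE 29 lists 42 pseudogenes of CYCS elsewhere in the genome, none of them in the table. HCCS, which attaches heme to cytochrome c and is no member, rose by 0.25 (limma adjusted p = 0.0121). The HCCS call was lost without IPI-9119 replicate 3 (limma adjusted p = 0.0673) and with both corrections, at -0.0048 and 0.013.

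Among the subunits of complex IV, 9 of 11 rose, with a median of 0.40, and 9 were called higher with a median of 0.25 after correction. COX7B had 2607, 2493 and 2677 in DMSO and 4369, 3999 and 3818 in IPI-9119. No DMSO library came near the lowest IPI-9119 library, and the mean went from 2592 ± 93.1 to 4062 ± 281 (1.57-fold, log2 fold change 0.65, SE 0.056, limma adjusted p = 2.34e-07; corrected 0.38). COX6B1, a subunit on the intermembrane side, had 2511, 2484 and 2373 in DMSO and 3932, 3454 and 3414 in IPI-9119, and rose by 0.55 (corrected 0.41). COX7A2 had 4381, 3982 and 4263 in DMSO and 6654, 5762 and 5766 in IPI-9119, and rose by 0.52 (corrected 0.27). In each of them the IPI-9119 libraries stood above all DMSO libraries.

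COX4I1, the subunit through which ATP is known to regulate the enzyme, had 8497, 7545 and 8331 in DMSO and 12465, 10713 and 10415 in IPI-9119, a rise of 0.46. COX6C and COX5A rose by 0.51 and 0.40. COX8A rose by 0.39 and had the highest level per kb of exons in the complex, 8778 normalised reads per kb in DMSO. COX7C had 12643, 11763 and 12128 in DMSO and 16559, 15015 and 14819 in IPI-9119, a rise of 0.34 (0.11 corrected). Per kb of coding sequence COX7C was the highest of the complex, so the order of levels depends on which length is used. COX5B had the smallest called rise among the subunits, 0.27.

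COX7B2 and COX6A1 were the 2 subunits that were not called. COX7B2, the testis paralog of COX7B, had 257, 264 and 208 in DMSO and 277, 280.3 and 271 in IPI-9119, with DMSO replicate 3 below the rest (log2 fold change 0.19, limma adjusted p = 0.149). COX6A1, the liver-type form of COX6A, had 9431, 8788 and 9048 in DMSO and 10682, 9179 and 9178 in IPI-9119. IPI-9119 replicate 1 lay above all other libraries and the remaining pair lay within the DMSO range (log2 fold change 0.088, limma adjusted p = 0.208). With correction COX6A1 was lower, at -0.15 (limma adjusted p = 0.012), so its direction turned with that choice; by principal transcript it was -0.085 and not called. COX7A2L, a COX7A relative that joins complexes III and IV in supercomplexes, had 3548, 3377 and 3439.6 in DMSO and 4882, 4315 and 4118 in IPI-9119, and rose by 0.36 (limma adjusted p = 0.000124; corrected 0.21).

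Assembly factors of complex IV spanned the whole range of the members: of 19, 15 rose, 1 fell and 3 were not called, with a median of 0.32 (11 higher, 1 lower and a median of 0.22 after correction). COX17, the copper chaperone that supplies SCO1 and COX11, had 1309, 1292 and 1299.6 in DMSO and 2317, 2165 and 2189.7 in IPI-9119. The DMSO libraries lay close together and every IPI-9119 library stood far above them. The mean of COX17 went from 1300.2 ± 8.87 to 2224 ± 81.6, 1.71-fold, the largest log2 fold change of all members at 0.77 (SE 0.053, limma adjusted p = 1.85e-08; corrected 0.53). COX10, which makes heme O for the enzyme, had 267, 280.2 and 326 in DMSO and 479.7, 482 and 479.5 in IPI-9119, and rose by 0.73 (limma adjusted p = 1.16e-05; corrected 0.57). COA1 had 626, 603 and 644 in DMSO and 1036, 963 and 1059 in IPI-9119, and rose by 0.71. Its merged exons are far longer than its coding sequence, and the corrections moved it in opposite directions, to 0.93 with merged exonic length and 0.48 by principal transcript. COA6, which acts in copper delivery to MT-CO2, had 822, 702 and 687 in DMSO and 1271, 1115 and 1129 in IPI-9119, and rose by 0.67.

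Of the other copper factors, COX11, which delivers copper to MT-CO1, rose by 0.41, and SCO2, a copper and thiol factor for MT-CO2, rose by 0.42 (limma adjusted p = 0.00777). COX11 shares 14.0% of its exonic length with TOM1L1 on the opposite strand, whose mean was 2007, so its count is uncertain. SCO2 had 357, 267 and 336 in DMSO and 459.6, 462 and 365 in IPI-9119; IPI-9119 replicate 3 lay just above the highest DMSO library, and an annotated second model of the gene shares 83.9% of its exonic length, so its count is uncertain. SCO1, its paralog, had 1296, 1253 and 1340.0 in DMSO and 1445, 1319 and 1382 in IPI-9119, with overlapping groups (log2 fold change 0.092, limma adjusted p = 0.188), and it was called higher after correction (0.22, limma adjusted p = 0.013). COX19, which works with COX11, had 219, 219 and 210.3 in DMSO and 163, 178 and 183 in IPI-9119. All IPI-9119 libraries lay below all DMSO libraries, the reverse of nearly every other member. The mean of COX19 went from 216 ± 4.98 to 175 ± 9.97, a log2 fold change of -0.31 (SE 0.11, limma adjusted p = 0.024). That call was lost in DESeq2 (adjusted p = 0.0584), after the correction (limma adjusted p = 0.058), by principal transcript (0.125), with quantile scaling (0.139), and without DMSO replicate 1 (0.0675), DMSO replicate 2 (0.0663) or IPI-9119 replicate 1 (0.0668). COX19 shares 21.4% of its exonic length with ADAP1 on the same strand, whose mean was 40.0.

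The other assembly factors that were called rose by 0.18 to 0.55. COX16 and COX14 rose by 0.55 and 0.49, and COX20, the chaperone of newly made MT-CO2, rose by 0.42. COX20 shares 72.0% of its exonic length with HNRNPU on the opposite strand, and the strand setting of the counting is not given in the sources used here, so its count is uncertain. COA4 and COA5 rose by 0.32 and 0.29, and COX15, which turns heme O into heme A, by 0.21. SURF1, which acts in the insertion of heme, rose by 0.21 (limma adjusted p = 0.0171), COX18 by 0.26 and COA3 by 0.18 (limma adjusted p = 0.0253). Without DMSO replicate 2 the calls of COX18, SURF1 and COA3 were lost (limma adjusted p = 0.0589, 0.0911 and 0.0544). The calls of SURF1 and COA3 were also lost without DMSO replicate 3 (0.0511 and 0.113), and that of COA3 without IPI-9119 replicate 1 (0.0811). COA8 had 504, 464 and 471 in DMSO and 555, 538 and 507 in IPI-9119, apart but not called (log2 fold change 0.15, limma adjusted p = 0.106). COA7 had 1145, 1194 and 1118 in DMSO and 1095, 1105 and 1153 in IPI-9119; the groups overlapped at a log2 fold change of -0.044 (limma adjusted p = 0.537), and with correction it was called lower (-0.24, limma adjusted p = 0.0018). By principal transcript COA7 was not called, at -0.11 (limma adjusted p = 0.0936).

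In complex V the catalytic head, F1, and the membrane and stalk part were described apart. Of the 5 F1 genes 4 rose, with a median log2 fold change of 0.28 (3 higher and 0.15 corrected). Of the 12 membrane and stalk genes all rose, with a median of 0.51 (8 higher and 0.31 corrected). The difference between these sets was not tested.

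Within F1, the small epsilon subunit ATP5F1E had 6167, 5736 and 5877 in DMSO and 9519.7, 8832 and 8992 in IPI-9119. The groups stood far apart, at a log2 fold change of 0.62 (SE 0.048, limma adjusted p = 6.53e-08; corrected 0.38). The beta subunit ATP5F1B, which holds the catalytic sites, had 27801, 27438 and 29150.4 in DMSO and 35999.8, 33809 and 34116 in IPI-9119. Its rise was smaller and still without overlap, 0.30 (limma adjusted p = 3.95e-05, 0.15 corrected). In DMSO its level of 12114 normalised reads per kb of exons was the highest of all members. Per kb of coding sequence ATP5F1B had 17725, below ATP5F1E at 38737 and COX7C at 63428. The alpha subunit ATP5F1A had 23859, 22650.2 and 23851 in DMSO and 29739.8, 27513 and 27309 in IPI-9119, and rose by 0.26 (limma adjusted p = 0.000194). The gamma subunit ATP5F1C, the rotating shaft, rose by 0.28, a value of 0.035 and no call after correction (limma adjusted p = 0.55). The delta subunit ATP5F1D had 2179, 2079 and 2194 in DMSO and 2243, 2132 and 2281 in IPI-9119; the groups overlapped (log2 fold change 0.045, limma adjusted p = 0.469).

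ATP5IF1, the protein that stops the synthase from running backwards, was not called. It had 3478, 3213 and 3226 in DMSO and 3332, 3226 and 2993 in IPI-9119, with overlapping groups and a log2 fold change of -0.055 (limma adjusted p = 0.402). After correction it was called lower (-0.21, limma adjusted p = 0.0017), and by principal transcript too (-0.21, limma adjusted p = 0.00029).

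In the membrane part, ATP5MK, a small subunit at the dimer interface, had 3494, 3115 and 3355 in DMSO and 6013, 5297 and 5349 in IPI-9119. Each IPI-9119 library lay far above the DMSO libraries, and the mean went from 3321 ± 192 to 5553 ± 399 (1.67-fold, log2 fold change 0.74, SE 0.059, limma adjusted p = 1.01e-07; corrected 0.60). ATP5ME, the e subunit that takes part in dimers, had 1213, 1216 and 1143 in DMSO and 2144, 1914 and 1899 in IPI-9119, and rose by 0.74 (limma adjusted p = 1.52e-07; corrected 0.59). ATP5ME shares 61.6% of its exonic length with MYL5 on the opposite strand, whose mean was 389 beside 1191 for ATP5ME in DMSO, so the count of ATP5ME may include reads of MYL5. The membrane subunits ATP5MF, ATP5MG and ATP5MJ rose by 0.53, 0.51 and 0.49.

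Stalk genes rose by 0.19 to 0.51. ATP5PF, the coupling factor, rose by 0.51 and ATP5PO, the oligomycin-sensitivity protein, by 0.30. ATP5PF shares 20.2% of its exonic length with GABPA on the opposite strand. ATP5PD, the d subunit whose promoter is shown above, had 4109, 3714 and 3863 in DMSO and 5305, 4513 and 4361 in IPI-9119. The lowest IPI-9119 library lay above the highest DMSO library, and the log2 fold change was 0.27 (limma adjusted p = 0.00309; corrected 0.049). ATP5PB, the b subunit, had 8109, 7422 and 7990.4 in DMSO and 9768, 8449 and 8563 in IPI-9119, the smallest rise of the membrane and stalk genes at 0.19 (limma adjusted p = 0.013). That call was lost without DMSO replicate 2 (limma adjusted p = 0.0669), and its direction turned with the correction (-0.063).

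Subunit c, which forms the rotating ring, is made from 3 genes that encode the same mature protein behind different import sequences. ATP5MC1 had 1547, 1531 and 1649 in DMSO and 2857, 2279.6 and 2426 in IPI-9119, and rose by 0.67 (limma adjusted p = 2.29e-06). ATP5MC3 had 4028, 3528 and 3837 in DMSO and 6081, 5434 and 5173 in IPI-9119, and rose by 0.55, and ATP5MC2 had 3244, 3131 and 3129 in DMSO and 4054, 3629.9 and 3579 in IPI-9119, and rose by 0.24 (limma adjusted p = 0.00139). In all 3 genes the IPI-9119 libraries lay above the DMSO libraries. Per kb of exons, the share of ATP5MC1 in the sum of the 3 went from 30.8% ± 1.12 to 35.3% ± 1.38 and that of ATP5MC2 from 40.6% ± 0.956 to 34.6% ± 0.714 (SD, n = 3 each). ATP5MC3 went from 28.6% ± 1.10 to 30.1% ± 0.808.

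The same was done for 2 pairs of complex IV paralogs. COX7A2L took 22.0% ± 0.479 of the sum with COX7A2 in DMSO and 20.1% ± 0.382 in IPI-9119 (SD, n = 3 each). COX7B2 took 26.0% ± 3.03 of the sum with COX7B in DMSO and 20.3% ± 0.974 in IPI-9119. In 4 of the 5 shares the groups did not overlap, with a two-sided exact permutation p of 0.1, the smallest that 3 against 3 libraries allow, and 0.2 for ATP5MC3. Adjusted over the 5 tests, the exact p was 0.125 for those 4, so none passed 0.05. The sizes depend on the length used, while the direction of each share was kept with exonic, coding and principal-transcript length.

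The subunits of complexes III to V encoded in mitochondrial DNA are no members. They form catalytic parts of complexes III and IV, and in complex V they belong to the membrane part. Of 6, 3 rose and 0 fell, beside 31.3% and 31.4% of all genes. Among genes with a mean of at least 1000, 40.2% were called higher and 33.8% lower. With either correction 1 of the 6 was called higher and 0 lower. MT-CO3 had 54371, 51344 and 62804 in DMSO and 82907, 81869 and 90876 in IPI-9119. The groups were apart, at a log2 fold change of 0.60 (limma adjusted p = 7.47e-06). MT-CO1 and MT-CO2, which hold the heme and copper centres, rose by 0.54 and 0.48 (limma adjusted p = 0.0116 and 0.00423). MT-CO1 had 68180.0, 70862 and 85797 in DMSO and 90381, 110050.0 and 129056 in IPI-9119, and its call was lost without DMSO replicate 2 (limma adjusted p = 0.0559). After the length and GC correction MT-CO1 and MT-CO2 were not called (limma adjusted p = 0.140 and 0.0596), nor were they with quantile scaling (0.102 and 0.0601).

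Cytochrome b and the ATP synthase subunits of mitochondrial DNA were not called. MT-CYB had 15229, 15685 and 19258 in DMSO and 16279, 19771 and 23552 in IPI-9119 (log2 fold change 0.24, limma adjusted p = 0.190), and was called higher without DMSO replicate 3 (limma adjusted p = 0.0373). MT-ATP6 had 19600.4, 20608 and 24802 in DMSO and 16992, 20735 and 25607 in IPI-9119 (log2 fold change -0.05, limma adjusted p = 0.797), and MT-ATP8 gave -0.15 (limma adjusted p = 0.521). In these 3 genes the groups overlapped. Among the IPI-9119 libraries, replicate 3 was highest and replicate 1 lowest for MT-CYB, MT-CO1, MT-CO2, MT-ATP6 and MT-ATP8, and the DMSO libraries stood in the same order for these 5 genes, whereas IPI-9119 replicate 1 was highest for most nuclear members.

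**Figure D3:**
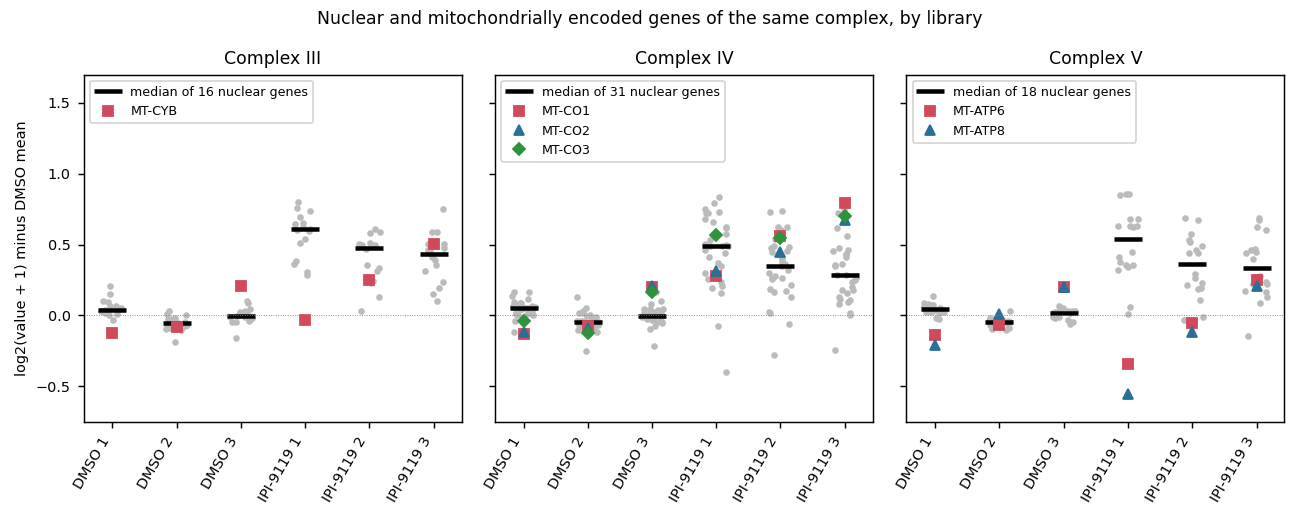
Log2(value + 1) in each of the 6 libraries minus the mean of the DMSO libraries, in a panel for each complex: grey dots are the nuclear genes of that complex, the black bar is their median, and coloured points are the mitochondrially encoded subunits. Over all 66 members the median is 0.52, 0.37 and 0.36 in the 3 IPI-9119 libraries; the complex V subunits MT-ATP6 and MT-ATP8 are lowest in IPI-9119 replicate 1, where the nuclear median is highest.

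Other genes of the pathway were taken from lists and are read against the 31.3% of all genes called higher. Of 13 further complex IV genes, 10 rose, 1 fell and 2 were not called. After the length and GC correction 8 were called higher and 1 lower, and by principal transcript 6 and 2. CMC2 rose most, by 0.75. NDUFA4, now counted as a complex IV subunit, went from 6151 ± 285 to 9743 ± 837 (SD, n = 3 each), a log2 fold change of 0.66 (limma adjusted p = 3.42e-07). LRPPRC, which stabilises mitochondrial mRNA, fell by 0.26 (limma adjusted p = 0.00012). Of 3 further assembly genes of complex III, TTC19 rose by 0.40 and the other two were not called, a share near that of all genes. Among 4 further complex V genes, TMEM70 and ATPAF1 rose by 0.41 and 0.39, and the other two were not called. With either correction 2 of these complex V genes were called higher and 1 lower. In complex II, 5 of 8 genes rose, led by SDHD at 0.62, and 3 were not called. After the length and GC correction 4 complex II genes were called higher and 1 lower, and by principal transcript 3 and 1.

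A list of regulators of respiratory genes held nuclear factors and also TFAM, TFB2M and POLRMT, which act on mitochondrial DNA. Of its 10 genes tested, 3 rose, 6 fell and 1 was not called by limma. TFAM and TFB2M were among those that rose and POLRMT among those that fell, so these counts are not of nuclear regulators alone. These are 30% and 60% of the list, beside 31.3% and 31.4% of all genes. After the length and GC correction 1 was called higher and 5 lower, and by principal transcript 2 and 5. ESRRA rose by 0.33 and TFAM, which packages mitochondrial DNA, by 0.22. The TFAM call was lost with both corrections, at 0.0041 (limma adjusted p = 0.95) and 0.094 (0.106). PPRC1, a coactivator of the PGC-1 family, fell by 1.53, and the mitochondrial RNA polymerase POLRMT fell by 0.83. The POLRMT call was lost after the length and GC correction (-0.089, limma adjusted p = 0.381), and by principal transcript its direction turned, at 0.025 and no call. NRF1 and GABPA, whose motif types are marked in the promoters above, fell by 0.40 and 0.23. These are RNA levels, and the activity of the factors was not measured.

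Across the series, 9061 of 14437 genes were called by limma. FASN itself went from 14743 ± 1415 to 12053 ± 2331 (SD, n = 3 each), a log2 fold change of -0.31 (limma adjusted p = 0.112), and its sign turned after correction (0.84). FASN was called lower by edgeR (adjusted p = 0.0274) and without IPI-9119 replicate 3 (limma adjusted p = 0.0225). IPI-9119 acts on the enzyme, so the RNA does not check the labels. The markers of luminal prostate epithelium KLK3, FOLH1, KRT8 and KRT18 were present, of which FOLH1 rose and the others fell. Leukocyte markers (0 of 3 listed in the table), endothelial markers (1 of 3) and fibroblast markers (2 of 3) were low or not in the table, at DMSO means of at most 59.0, and none was called before correction. After the length and GC correction VWF and COL1A1 were called higher (0.89 and 1.49, limma adjusted p = 0.00115 and 0.000425), and by principal transcript also COL1A2 (0.62, limma adjusted p = 0.00758). Their part in the members' values was not tested. An exonic overlap of any size with another gene was found in 39 members. A narrower set required an overlap of at least 10% of the exonic length with a gene whose mean was at least 10. Together with members that have a pseudogene in the table, and with UQCRH, UQCRHL and SCO2, this gave 19 members counted as sharing reads. They were ATP5ME, ATP5PB, ATP5PD, ATP5PF, COA6, COX11, COX17, COX19, COX20, COX6A1, COX7A2, SCO2, UQCC2, UQCC3, UQCC5, UQCRFS1, UQCRH, UQCRHL and UQCRQ. Of the other 47 members 40 rose and 0 fell, beside 31.3% and 31.4% of all genes. These 47 still hold smaller overlaps, such as 3.91% of UQCC6 with HSP90B1 (mean 30800), and overlaps with genes not in the table.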

How the data were processed

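PolyA RNA was measured in 3 IPI-9119 and 3 DMSO libraries of C4-2 cells. The unit of the deposited table is a signal: the authors scaled each library's gene counts by its own size factor, as is seen in the values. The build GRCh38 and the tools STAR 2.5.2b, Trimmomatic 0.36, Subread 1.5.2, featureCounts and DESeq2 are named per the submitters' processing notes, with no role or order. The annotation release and strand setting are not given in the sources used here. All values (100%) were whole multiples of 1 read within 0.01 read, which gave back 19090749 to 23448035 reads per library. Between replicates the counts differed beyond sampling noise, with a chi-square of 2.30 to 9.60 per degree of freedom.

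Groups came from the treatment labels. The test was limma 3.58.1 in R 4.3.3 (trend and robust moderation, two-sided) on log2(value + 1), over 14437 genes with a mean of at least 10, which removed 19. Fold changes on that scale understate the change of low genes. Adjusted p-values under 0.05 were called. Limma called 9061 genes. With the recovered counts, the quasi-likelihood test of edgeR 4.0.16 called 9072 and DESeq2 1.42.0 called 8460. Of the 14456 genes, 14409 matched GENCODE 29 and 14355 a current symbol. The correction for length and GC content fitted the deviations of each library with splines (4 degrees of freedom per term, interaction included) on log2 exonic length and the GC percent of the longest transcript, which 99.7% of the genes had, and subtracted the fit. Scripts were tested on simulated data.

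Members and gene lists were chosen with earlier results of these data known. Named for each role were the 3 called members with the largest change, all members called lower or not called, the highest level per kb and paralog sets, and from each other list the largest change in each direction. Other members are named with their values for completeness. Alternatives were TMM and quantile scaling, pseudocounts of 0.5 and 8, a minimum mean of 50 or none, a replicate block, fits with neither trend nor robust moderation, both count tests, the length and GC correction and leaving out each library. Chosen after seeing the data were the correction by principal transcript, that with a replicate block and shares per kb of principal transcript. So were both other memberships, by GENCODE 29 symbols and without the 19 members counted as sharing reads. Some results on marker genes are not reported here.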

Additional observations from a re-analysis of the deposited data

How the results depend on the processing

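The 56 members called higher were between 45 and 60 under the other settings of the test, and 42 were higher in all of them (51 without the length corrections). Members called lower (1) were 0 in DESeq2 and quantile scaling, and 0 without the 19 members counted as sharing reads. They were 3 with the length and GC correction, also with a replicate block. Leaving out 1 library gave 0 to 1 lower and 52 to 56 higher. The members' median log2 fold change was 0.27 with that correction, with or without the block, and 0.24 by principal transcript. With the length and GC correction, COX6A1 turned to -0.15 and ATP5PB to -0.063, in both fits. By principal transcript COA3 turned to -0.0020 and ATP5F1C to -0.0022. Of members called neither with nor without these corrections, COX7B2 turned to -0.018 and COA8 to -0.0071 with the length and GC correction, and COX7B2 to -0.066 by principal transcript, where COX6A1 was -0.085 and not called. FASN turned to 0.84 with the length and GC correction, in both fits, and to 1.5 by principal transcript. The cause was not tested. The labels do not say whether libraries with the same replicate number form pairs. Deviations of same-numbered libraries correlated at 0.141, 0.0634 and 0.00443, and those of differently numbered libraries at -0.145 to 0.0985. Such low correlations do not show pairing and cannot exclude it, so this was left undecided. With the replicate block 56 members were higher and 1 was lower. With it MT-CYB was called higher (limma adjusted p = 2.89e-05), and MT-ATP8 (0.013) and FASN (2.71e-05) lower. Without trend and robust moderation the calls of SCO2, SURF1, COA3 and ATP5PB were lost. Members with few reads, such as UQCRHL, are the least precise.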
